A study of Mus musculus with 4 samples.

Results

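The Schlafen family was followed through the immune cells of 4 mouse melanomas. The members were chosen by name, as the 7 genes Slfn1, Slfn2, Slfn3, Slfn4, Slfn5, Slfn8 and Slfn9, and all 7 were present among the 32285 genes of the single-cell count matrix. CD45+ cells had been sorted from tumours of YUMM1.7 OVA, a mouse melanoma line with mutant Braf that carries the ovalbumin antigen, and transcript 3′ ends had been counted by droplet sequencing with unique molecular identifiers (UMIs). The hosts were Rag2-/- mice, in which no endogenous T or B cells form. Every host received ovalbumin-specific OT-1 CD8 T cells on day 7, and the cells were taken on day 10, 72 h later. NTT tumours came from a treatment-naive clone (3A6). RTT tumours came from a clone resistant to BRAF inhibition that was kept in dabrafenib (2B12). RTT_ROSA26 tumours came from RTT cells with a control guide against Rosa26, and RTT_PTGS12KO tumours from RTT cells that had lost the cyclooxygenase genes Ptgs1 and Ptgs2. The edits were made in the cancer cells and not in the hosts. Each group was 1 sample of 1 line, so no difference between groups has a replicate and none could be tested. The labels give 1 tumour a condition whereas the study's legends speak of pooled tumours. The comparisons ask whether Schlafen transcripts in myeloid cells differ between NTT and RTT tumours, and between tumours with and without cyclooxygenase.

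Schlafen proteins share a core domain, and several of them bind or cut transfer RNA. The mouse members are classed by size: Slfn1 and Slfn2 are short, Slfn3 and Slfn4 are intermediate, and Slfn5, Slfn8 and Slfn9 are long and carry a helicase-like domain as well. Several of the genes are induced by type I interferon in macrophages.

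All 7 genes lie in 1 cluster on chromosome 11 (RefSeq, GRCm38.p6), between bases 82951349 and 83215154, a span of 263.8 kb. Their order is Slfn5, Slfn9, Slfn8, Slfn2, Slfn1, Slfn4 and Slfn3, with Slfn9 and Slfn8 on the minus strand. The 250 bases before each gene start were searched on both strands for the core of the interferon-stimulated response element (GAAA, any 2 bases, GAAA) and for the gamma-activated site (TTC, any 3 bases, GAA). The response element core was present in Slfn5, Slfn8 and Slfn9, and in 3.46% of the 27025 genes with such a window. It was not in the windows of Slfn1, Slfn2, Slfn3 and Slfn4. No member held the letters of the gamma-activated site, which 8.13% of genes held. The 3 stretches with a match are shown because the levels of these long members are compared with interferon genes further on. They are written 5′ to 3′ on the gene's strand, with the match in capitals.
Slfn5: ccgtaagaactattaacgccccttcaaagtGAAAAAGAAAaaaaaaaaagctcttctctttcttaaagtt
Slfn8: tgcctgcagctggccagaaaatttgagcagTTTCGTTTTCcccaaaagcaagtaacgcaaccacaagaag
Slfn9: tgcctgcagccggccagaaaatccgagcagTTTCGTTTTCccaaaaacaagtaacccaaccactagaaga
The Slfn5 stretch is chr11:82951917-82951986 on the plus strand, and its match runs from 155 to 146 bases before the start, which lies inside the annotated span of the gene. The Slfn8 stretch is chr11:83020819-83020888 on the minus strand, and its match runs from 48 to 39 bases before the nearer of its annotated starts. The Slfn9 stretch is chr11:82991836-82991905 on the minus strand, and its match runs from 45 to 36 bases before the start. Over the 40 bases up to the end of the match, Slfn8 and Slfn9 were identical at 37. A match is a run of letters and not a shown binding site.

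The 4 samples held 33368 cells in 17 cell types named by the authors, with 69332486 to 146829369 UMIs a sample and a median of 7292.5 to 13280.0 UMIs a cell. NTT was the shallowest. Of the cell barcodes, 75 occurred in more than 1 sample and 0 more than once within a chip load. Types named Macro, Myofibrobl and TAM_H2Ab1 had none of the listed markers among their 10 leading genes, and the other types had at least 1. Levels are given as CPM, the UMIs of a gene scaled to 1e+06 UMIs of the named cells. Ptgs1 was at 6.20, 68.1, 55.4 and 14.9 CPM and Ptgs2 at 562, 349, 231 and 349 CPM over all cells of NTT, RTT, RTT_ROSA26 and RTT_PTGS12KO, and since these are immune cells the values do not check the knockout. Lists of 4 values keep that order of samples. Ratios are log2 ratios of CPM + 1, and parentheses hold exact 95% intervals, which cover counting error only. Fewer cells of a type and less RNA a cell cannot be told apart in pooled values.

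Over monocyte and macrophage types together, the Schlafen family was higher in NTT than in RTT and higher in RTT_PTGS12KO than in RTT_ROSA26. The 6 members other than Slfn3 passed the minimum of 10 CPM, and all 6 had positive ratios in both comparisons. Slfn1 was at 242, 19.7, 8.73 and 71.8 CPM, with NTT above RTT by 3.56 (3.49 to 3.62). Slfn4 was at 71.6, 5.86, 6.64 and 12.8 CPM, with a ratio of 3.40 (3.29 to 3.51). Slfn5 was at 212, 35.5, 26.6 and 67.2 CPM, with a ratio of 2.55 (2.495 to 2.60). NTT was the highest and RTT_PTGS12KO the next highest sample for each of these genes. Slfn8 exceeded RTT by 1.96 (1.88 to 2.04), Slfn9 by 1.39 and Slfn2 by 0.60. At least 2-fold higher in NTT were 5 of the 6 members, beside 6.9% of 6954 genes, and the median was 2.25 beside -0.12 over those genes. Slfn4 reached the minimum only through NTT here, in macrophages and in TAM_cycling, so in all 3 it had to be higher there and its place in the count and the median is no finding. Without it, 4 of 5 members were at least 2-fold higher and the median was 1.96. In RTT_PTGS12KO against RTT_ROSA26 the count was 3 of 6, beside 4.1% of genes, namely Slfn1 (2.90), Slfn5 (1.31) and Slfn8 (1.25), and the median was 1.05 beside -0.12.

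The mixture of cells differed along with these pooled values. Monocytes (Monocyte_1, Infl_Mono and Monocyte_3) made up 95.6% (95.04 to 96.03) of monocytes and macrophages of NTT, against 7.19% (6.61 to 7.81) for RTT, 2.35% (1.98 to 2.76) for RTT_ROSA26 and 43.5% (42.5 to 44.6) for RTT_PTGS12KO. These shares rest on the authors' names. With cells placed by marker UMIs, monocytes were 4101 of 6927 cells in NTT and 200 of 7256 in RTT. They were then 259 of 6137 in RTT_ROSA26 and 2086 of 9222 in RTT_PTGS12KO. By the authors' names, Slfn1, Slfn2, Slfn4, Slfn5 and Slfn8 were higher in monocytes than in macrophages in each of the 4 samples. With the cell types of at least 50 cells in both samples weighted equally, the median between NTT and RTT was 0.32, and that between RTT_PTGS12KO and RTT_ROSA26 was 0.21. Slfn1 (1.03) was then still at least 2-fold higher in NTT, and 0 members were in RTT_PTGS12KO. Slfn4 was at 1.82 in NTT, with the limit given above.

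Within monocytes alone the family differed less between NTT and RTT. At least 2-fold higher in NTT was 1 of 6 members, Slfn4, beside 1.63% of 6438 genes, and the median was 0.34. Lower in RTT_PTGS12KO than in RTT_ROSA26 by at least 2-fold was 1 of 6, Slfn5 (-1.25), beside 1.63% of genes, and the median was -0.90. The RTT_ROSA26 monocytes were 144 cells, 86 of them Infl_Mono and 54 Monocyte_1, whereas RTT_PTGS12KO had 635 and 3347 cells of these types. In this comparison the ratios of the 6 members lay between -0.22 (Slfn8) and 0.49 (Slfn1) within Infl_Mono. Within Monocyte_1 they lay between -0.67 (Slfn5) and 0.38 (Slfn9). With these types weighted equally Slfn5 was at -0.12. With cells placed by marker UMIs it was at 0.26, but 172 of the 259 cells then placed as monocytes in RTT_ROSA26 were macrophages by the authors' names. Within macrophages 5 of 6 members were at least 2-fold higher in NTT than in RTT, beside 4.74% of 7061 genes and with Slfn4 again among them, and 1 of 6, Slfn1, was in RTT_PTGS12KO against RTT_ROSA26, beside 2.52%. With the 4 types TAM_C1q, TAM_Spp1, TAM_cycling and Ctsk_Macro weighted equally the latter count was 2 of 6, Slfn1 (1.62) and Slfn8 (1.06), beside 2.39%. The macrophages of NTT were 308 cells, of which 192 were TAM_H2Ab1 and 79 TAM_cycling, and those of RTT 6734 cells. With the TAM_cycling and TAM_H2Ab1 types weighted equally, Slfn1 (1.67) remained at least 2-fold higher in NTT, and Slfn9 was at 0.51. Slfn4 was at 2.20, but it had passed the minimum through NTT alone.

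**Figure D1:**
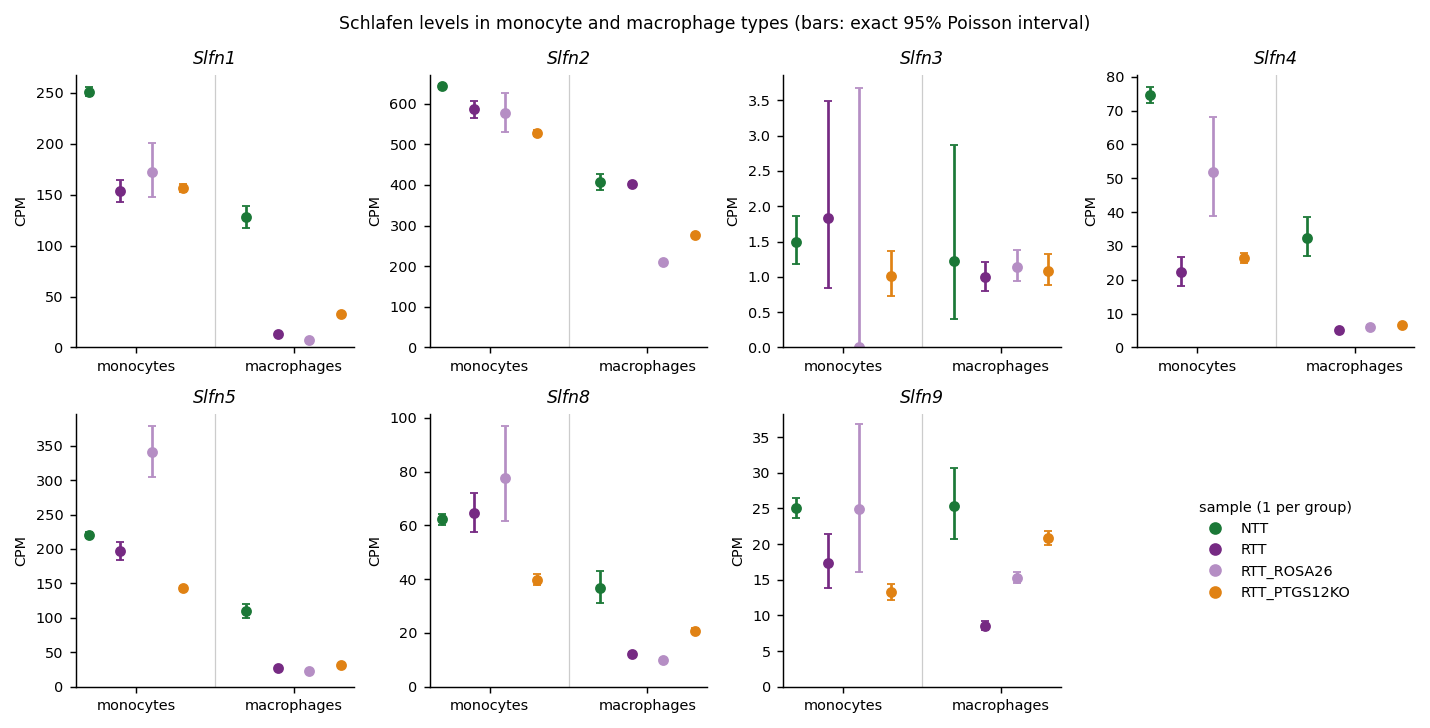
CPM on a linear axis from 0 for the 7 Schlafen members in summed monocyte and macrophage types, 1 point a sample with its exact 95% Poisson interval. In macrophages, Slfn1 was at 128 CPM in NTT and 12.96 CPM in RTT, and Slfn3 stayed at or under 1.84 CPM in both cell classes.

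Slfn1, a short member described as a brake on T cell growth, had the highest ratio of the family over pooled macrophages in both comparisons. With TAM_cycling and TAM_H2Ab1 weighted equally it was at 1.67 between NTT and RTT, beside 2.20 for Slfn4, whose place among the genes tested came through NTT alone. Macrophages held 128 (117 to 139), 12.96 (12.3 to 13.7), 7.08 (6.57 to 7.62) and 32.5 (31.3 to 33.7) CPM. NTT and RTT_PTGS12KO were the higher samples and no interval overlapped another. The ratio was 3.20 (3.06 to 3.35) for NTT against RTT, ranking 45 of 7061 genes from the top, and 2.05 (1.94 to 2.16) for RTT_PTGS12KO against RTT_ROSA26, ranking 56. With macrophage types of at least 50 cells weighted equally these ratios were 1.67 and 1.62. In the single type TAM_cycling, whose leading genes are those of dividing cells, Slfn1 was at 131, 10.2, 5.72 and 37.9 CPM, the same order of samples. RTT_PTGS12KO exceeded RTT_ROSA26 in each of the 4 macrophage types with at least 20 cells in both, from 0.77 (0.55 to 0.99) in TAM_Spp1 to 2.53 (2.36 to 2.704) in TAM_cycling. Of these types, Slfn1 was under the minimum in Ctsk_Macro and passed it in TAM_C1q through RTT_PTGS12KO alone, so the direction in TAM_C1q is no finding. NTT exceeded RTT in TAM_cycling by 3.55 (3.26 to 3.84) and in TAM_H2Ab1 by 0.95 (0.56 to 1.35), whereas in TAM_Spp1, with 20 cells in NTT, the interval was -1.14 to 1.35. At least 2-fold higher in TAM_cycling were 3 of 6 members in NTT against RTT (Slfn1, Slfn4 and Slfn5), beside 4.19% of genes, and 2 of 6 in RTT_PTGS12KO against RTT_ROSA26, beside 2.96%.

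In monocytes Slfn1 was at 251, 154, 173 and 157 CPM. NTT was the highest, and the ratio of RTT_PTGS12KO to RTT_ROSA26 was -0.14 (-0.36 to 0.08), an interval that holds 0. Neutrophils held 473, 447, 179 and 504 CPM, and RTT_ROSA26 alone was low among them. Of its 146 neutrophils, 37 held at least 3 UMIs of 4 cell division genes (Mki67, Top2a, Stmn1 and Cdk1), against 3 to 10 cells in the other samples. Without such cells the levels were 481, 485, 262 and 567 CPM. In cells with none of these UMIs they were 556, 550.3, 310.2 and 660.0 CPM, so RTT_ROSA26 was still the lowest, at a value over 1.5 times that of all its neutrophils. cDC2, conventional dendritic cells that present antigen to CD4 T cells, held 176, 47.5, 9.48 and 85.5 CPM, the order seen in macrophages. In cDC2, 3 of the 4 members past the minimum were at least 2-fold higher in NTT than in RTT, beside 4.65% of genes, and all 4 were in RTT_PTGS12KO against RTT_ROSA26, beside 4.82%, with Slfn1 at 3.04 (2.51 to 3.61). Slfn4 and Slfn9, under the minimum in cDC2, were at 0.19 (-0.74 to 1.13) and 0.58 (-0.18 to 1.35) in the latter comparison.

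The share of macrophages with a UMI followed the Slfn1 level. At a common depth of 3000 UMIs a cell, 29.3%, 3.72%, 2.26% and 8.06% of macrophages and 48.1%, 34.1%, 35.5% and 35.6% of monocytes had a UMI of Slfn1. Without thinning, the shares of macrophages were 64.9%, 12.1%, 7.69% and 29.2%, at median depths of 11598, 12915, 14097 and 15570 UMIs. Myofibrobl, a type the authors named and whose leading genes include Col1a2, Mgp and Grem1, served as the background: at the common depth 0.351%, 0.446% and 1.26% of them had a UMI in RTT, RTT_ROSA26 and RTT_PTGS12KO, and their levels were 1.71, 2.07 and 4.77 CPM. Macrophages were above these shares in all 3 samples. In NTT this type gave no usable background, since its 6 Myofibrobl cells were at 70.6 CPM and 31.6%, above the share of its macrophages. The 709 natural killer cells of NTT, which may express Slfn1 themselves, were at 31.6 CPM and 6.97%, under that share. Unthinned, 3.21%, 5.08% and 8.11% of the Myofibrobl cells of RTT, RTT_ROSA26 and RTT_PTGS12KO had one, at median depths of 33469, 32760.0 and 38225 UMIs.

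Slfn2, the other short member, known for keeping T cells and monocytes quiescent, did not follow the order of Slfn1. Monocytes held 643, 586, 577 and 527 CPM, and macrophages 407, 402, 211 and 276 CPM. The NTT and RTT macrophages differed by 0.02 (-0.05 to 0.09), and RTT_ROSA26 was the lowest sample. RTT_ROSA26 was below RTT by a ratio of -0.93 (-0.95 to -0.91) in macrophages, which ranked 7001 of 7061 genes from the top. The same ratio was negative in 10 of the 10 cell types with at least 20 cells in both samples, with the interval under 0 in 9, and it lay between -1.04 and -0.16. RTT_PTGS12KO exceeded RTT_ROSA26 by 0.39 (0.36 to 0.41) in macrophages. In Ctsk_Macro, macrophages led by the osteoclast genes Ctsk, Mmp9 and Acp5, 85.1 CPM in RTT_ROSA26 stood against 253 CPM in RTT_PTGS12KO, a ratio of 1.56 (1.42 to 1.701). Among cell types with at least 20 cells in at least 2 samples, Slfn2 was lowest in Myofibrobl, at 19.1 to 31.8 CPM, which did not overlap the next type, Ctsk_Macro, at 85.1 to 253 CPM. Mast cells, with 24 cells in RTT_ROSA26 alone, lay between them at 69.0 CPM (42.7 to 105).

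Slfn3, of intermediate size, was close to the limit of counting. Whole samples held 102, 138, 121 and 157 UMIs, that is 1.47, 1.18, 1.10 and 1.07 CPM. It did not reach the minimum, so no ratio of Slfn3 is read. In the last 500 bases of its longest coding transcript, where 3′ reads fall, 33.4% of 31-base words also occur in Slfn4 transcripts, so its counts are uncertain. The share of such words found in other Schlafen genes was 10.0% for Slfn8, 3.19% for Slfn2 and 0% for Slfn1, Slfn4, Slfn5 and Slfn9.

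Slfn4, the other member of intermediate size, whose level is known to go down as myeloid cells mature, was highest in neutrophils and then in Infl_Mono, the monocytes led by interferon-stimulated genes. Neutrophils held 584, 373, 237 and 456 CPM and Infl_Mono 182, 56.5, 76.5 and 92.6 CPM, and neither range overlapped the next type in the order, which after Infl_Mono was Monocyte_1 at 10.2 to 42.8 CPM. In neutrophils with no UMIs of the 4 cell division genes, Slfn4 was at 615, 459, 257 and 588 CPM, and RTT_ROSA26 was still the lowest. Slfn4 ranks 16 among the genes that lead the neutrophil cluster, so its place there is a description. Of all Slfn4 UMIs, neutrophils held 14.1%, 46.9%, 42.8% and 27.2% in the 4 samples. Monocytes held 74.6, 22.2, 51.9 and 26.4 CPM, and macrophages 32.5, 5.04, 6.18 and 6.53 CPM. NTT was the highest sample in both classes. In Infl_Mono, Monocyte_1, Macro and Neutro, the 4 types in which Slfn4 passed the minimum without NTT as well, the ratio of NTT to RTT lay between 0.65 and 2.44 with its interval above 0. It was 2.47 (2.20 to 2.73) in macrophages, where, as in TAM_Spp1, TAM_cycling and TAM_H2Ab1, Slfn4 passed through NTT alone. RTT_PTGS12KO and RTT_ROSA26 macrophages differed by 0.07 (-0.08 to 0.21), and in the 7 cell types where Slfn4 passed the minimum without RTT_PTGS12KO as well, 3 ratios were positive.

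**Figure D2:**
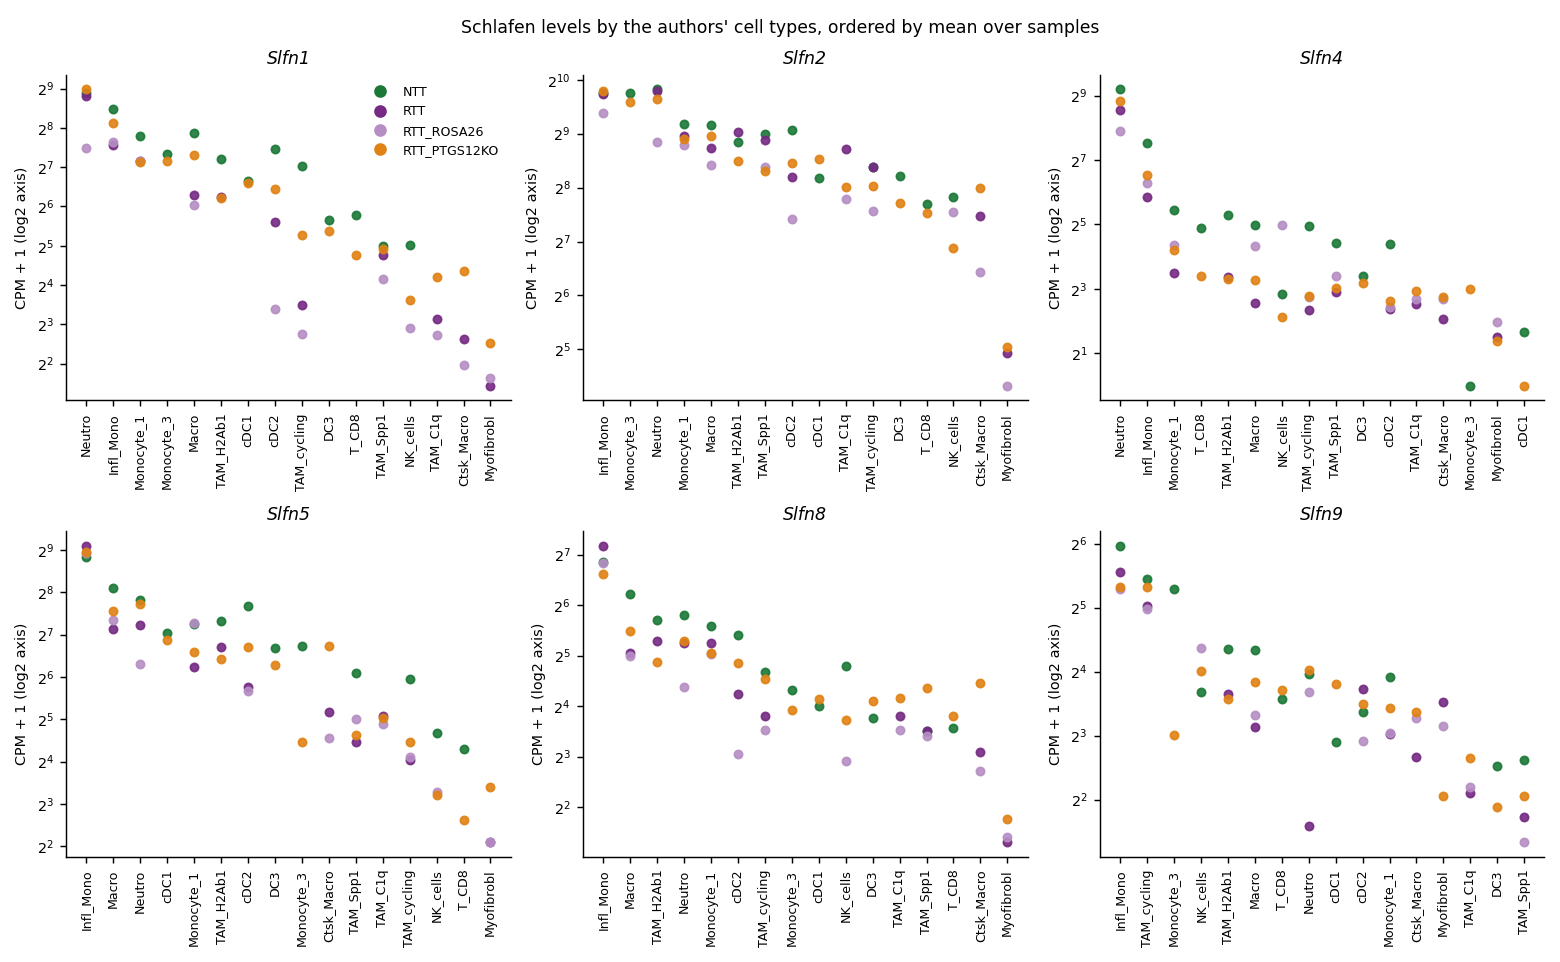
CPM + 1 on a log2 axis for 6 Schlafen members in the cell types with at least 20 cells in a sample, 1 point a sample, with types ordered by their mean over samples. By their means, Slfn1 and Slfn4 are highest in neutrophils and the other members in Infl_Mono, with Slfn9 next in TAM_cycling at 30.6 to 42.8 CPM.

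Slfn5, a long member known to restrain viral transcription in the nucleus, was highest in Infl_Mono in each sample. These cells held 451, 547, 482 and 489 CPM, and the next type, Macro, held 139 to 274 CPM without overlap. Slfn5 ranks 10 among the genes that lead the Infl_Mono cluster, so this is a description of the cluster. Macrophages held 110 (99.8 to 120.4), 27.4, 23.5 and 32.2 CPM, and NTT was clear of the other samples. The macrophage ratio was 1.96 (1.82 to 2.11) for NTT against RTT, and 0.87 with types weighted equally. For RTT_PTGS12KO against RTT_ROSA26 it was 0.44 (0.36 to 0.52), and among macrophage types it went from -0.38 (-0.57 to -0.18) in TAM_Spp1 to 2.17 (1.93 to 2.42) in Ctsk_Macro. In that type Slfn1, Slfn4 and Slfn9 were all under the minimum. Slfn1 was at 2.38 (1.83 to 2.92) there in the same comparison, Slfn4 at 0.05 (-0.62 to 0.70) and Slfn9 at 0.08 (-0.47 to 0.62).

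Slfn8, a long member known from myeloid and T cells, was also highest in Infl_Mono, at 114, 144, 113 and 97.2 CPM, with no overlap with the next type. Macrophages held 36.7, 12.3, 10.0 and 20.8 CPM, and here RTT_PTGS12KO was the next highest after NTT. The ratio was 1.51 (1.26 to 1.74) for NTT against RTT, 0.54 with types weighted equally, and 0.98 (0.88 to 1.09) for RTT_PTGS12KO against RTT_ROSA26. The latter comparison was positive with its interval above 0 in all 4 macrophage types, between 0.65 and 1.73, but in Ctsk_Macro, the highest of them, Slfn8 passed the minimum through RTT_PTGS12KO alone.

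Slfn9, the long member beside Slfn8 in the cluster, was spread over cell types in another way. TAM_cycling held 42.8 (32.7 to 55.0), 31.7 (29.2 to 34.4), 30.6 (29.0 to 32.3) and 39.1 (37.2 to 41.1) CPM, whereas TAM_C1q held 3.29 to 5.25 CPM and TAM_Spp1 1.53 to 5.16 CPM. Dividing macrophages thus held more Slfn9 than these types in every tumour. Infl_Mono held 61.6, 46.3, 38.3 and 38.9 CPM, which overlapped TAM_cycling. TAM_cycling supplied 3.94% of the Slfn9 UMIs of NTT, 54.7% of those of RTT, 79.7% of those of RTT_ROSA26 and 61.3% of those of RTT_PTGS12KO. Over all macrophages Slfn9 was at 25.3, 8.55, 15.3 and 20.8 CPM. RTT_ROSA26 exceeded RTT there by 0.77 (0.66 to 0.88), but within TAM_cycling the ratio was -0.05 (-0.19 to 0.09). TAM_cycling made up 1834 of 5993 macrophages in RTT_ROSA26 and 873 of 6734 in RTT. At the common depth 8.16% of the TAM_cycling cells of RTT had a Slfn9 UMI, against 0.936% of its TAM_C1q cells and 2.45% of its Myofibrobl cells.

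The higher Slfn9 of dividing cells was also seen outside TAM_cycling. Cells with at least 3 UMIs of Mki67, Top2a, Stmn1 and Cdk1, genes of cell division, were compared with cells that had none, within a cell type and a sample, a split chosen after the levels had been seen. Outside TAM_cycling there were 19 such pairs. Slfn9 was higher in the dividing cells in 17 of the 19, with the interval above 0 in 11 and below 0 in 0, and the median ratio was 1.15. The share of all genes that were higher as often was not computed, so only the other members serve as comparison. The other 2 of the 21 pairs were TAM_cycling itself, whose leading genes include Mki67 and Top2a of the split, and they stood at 2.02 and 1.37. For Slfn5 the interval was above 0 in 0 of the 19 pairs and below 0 in 8, and for Slfn1 in 0 and 7. Slfn2 went both ways, above 0 in 6 and below 0 in 6, and Slfn4 was above 0 in 1 and below 0 in 4. Slfn8 was below 0 in 1 and above 0 in 0. In Ctsk_Macro, Slfn9 was at 20.7 against 0.73 CPM in RTT, at 26.7 against 0.28 CPM in RTT_ROSA26 and at 28.6 against 1.54 CPM in RTT_PTGS12KO. Natural killer cells of NTT held 17.4 against 4.48 CPM. Monocyte_1 showed no such gap, with 13.3 against 13.7 CPM in NTT and 10.7 against 10.5 CPM in RTT_PTGS12KO. TAM_H2Ab1 of RTT_PTGS12KO was the other exception, with 9.83 against 14.9 CPM. Dividing cells also held more UMIs, with a median of 24690.0 against 16918 in Ctsk_Macro of RTT_ROSA26, and the part of depth in the result was not tested.

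**Figure D3:**
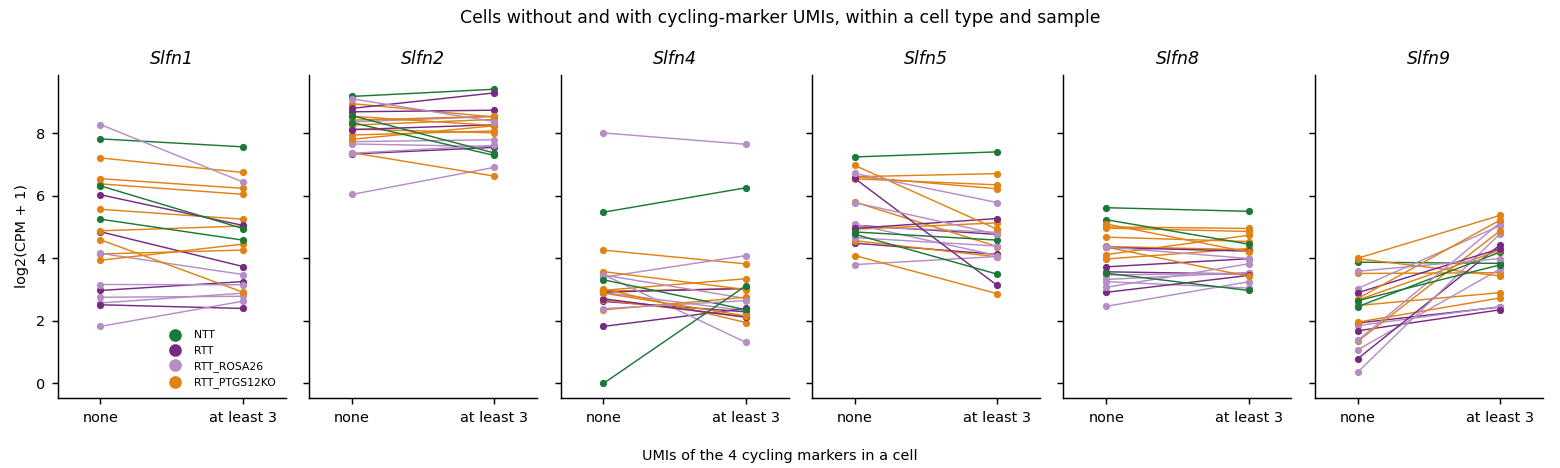
log2(CPM + 1) of 6 Schlafen members in cells with none and with at least 3 UMIs of 4 cell division genes, 1 line for each of 21 pairs of cell type and sample, 2 of them TAM_cycling. Slfn9 goes up in 19 lines and Slfn5 in 5.

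Interferon-stimulated genes were higher in the same samples. Summed over 34 type I interferon-stimulated genes, macrophages held 10980.5, 2531, 1927 and 3869 CPM, and summed over 19 genes induced by interferon-gamma they held 5009.6, 1084, 629 and 3279.8 CPM. In macrophages of NTT against RTT, 28 of 28 type I genes and 18 of 18 interferon-gamma genes past the minimum were at least 2-fold higher, beside the 4.74% of all genes, with medians of 2.64 and 2.39 beside 1.73 for the Schlafen members. Of the 28, 6 reached the minimum only through NTT and so had to be higher there, as did Slfn4. Without them 22 of 22 type I genes were at least 2-fold higher, and the medians were 2.41 for type I genes and 1.51 for the Schlafen members. In RTT_PTGS12KO against RTT_ROSA26 the counts were 22 of 28 and 18 of 18, beside 2.52%, with medians of 1.41 and 2.80 beside 0.43 for the Schlafen members. These pooled counts hold a difference in mixture too, since TAM_H2Ab1, whose leading genes include Cxcl9 and Iigp1 of the interferon response, made up 192 of the 308 NTT macrophages and 63 of the 6734 from RTT. It made up 364 of 5207 RTT_PTGS12KO macrophages and just 11 of the 5993 with the ROSA26 guide. With the types of at least 50 cells in both samples weighted equally, a setting added after seeing the data, 16 of 28 type I and 4 of 18 interferon-gamma genes were at least 2-fold higher in NTT, beside 2.11% of genes, and the medians were 1.21 and 0.61 beside 0.71 for the Schlafen members. Without the genes that passed through NTT alone these were 12 of 22 type I genes, a type I median of 1.18 and a Schlafen median of 0.54. In the other comparison the 4 types weighted so leave TAM_H2Ab1 out, and the counts were 21 of 28 and 18 of 18, beside 2.39%, with medians of 1.37 and 2.92 beside 0.63. Of 10 interferon receptor and signalling genes, 3 were at least 2-fold higher in NTT and 2 in RTT_PTGS12KO, beside the same shares of all genes. In monocytes the type I counts were 8 of 34 higher in NTT and 9 of 34 lower in RTT_PTGS12KO, beside 1.63% of genes in either case. The type I medians in these comparisons were 0.55 and -0.43, and the interferon-gamma medians were 0.50 and 0.54. The mixture of monocytes differed too. Infl_Mono, led by interferon-stimulated genes, was 86 of the 144 monocytes of RTT_ROSA26 and 635 of the 4015 of RTT_PTGS12KO.

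Within a sample, Schlafen levels were then set beside the interferon genes cell by cell, again chosen after the levels had been seen. Cells were ranked by the share of their UMIs in the type I list, which holds no Schlafen gene, and split into 5 bins of equal size. The share of all genes that rise between such bins was not computed, here or within single types. The counts of samples and pairs therefore do not set the members apart from other genes. From the lowest to the highest bin of macrophages, Slfn1 went from 54.0 to 224 CPM in NTT, from 2.69 to 42.1 in RTT, from 1.55 to 26.5 in RTT_ROSA26 and from 8.69 to 72.7 in RTT_PTGS12KO. The folds of CPM + 1 between these bins were 4.09 to 11.7 for Slfn1, 4.66 to 5.83 for Slfn5, 2.12 to 2.64 for Slfn8, 1.94 to 3.27 for Slfn4 and 1.24 to 1.71 for Slfn2, and each was above 1 in 4 of 4 samples. Slfn9 in macrophages had no single direction, with 12.3 to 33.5 CPM in NTT but 19.0 to 11.4 CPM in RTT_ROSA26. These bins differed in type. TAM_cycling, rich in Slfn9, went from 37.1% of the lowest to 13.9% of the highest bin in RTT_ROSA26. It went from 32.3% to 13.1% in NTT, from 17.9% to 9.29% in RTT and from 30.1% to 39.9% in RTT_PTGS12KO. The part of this mixture in the Slfn9 values was not tested. With macrophages ranked by the interferon-gamma list instead, all 6 members were higher in the highest bin in 4 of 4 samples, Slfn9 by 1.62 to 3.07-fold. In monocytes, 3 samples had enough cells, and the bins differed in cell type. Infl_Mono, which is led by genes of the list and has Slfn5 and Slfn4 at ranks 10 and 28 among its leading genes, was 4.68%, 4.76% and 0.498% of the lowest bin and 64.6%, 66.3% and 47.8% of the highest in NTT, RTT and RTT_PTGS12KO. The folds were 5.81 to 10.1 for Slfn4, 3.81 to 9.93 for Slfn5, 2.77 to 5.61 for Slfn8, 2.51 to 3.28 for Slfn1 and 1.88 to 2.42 for Slfn2. Slfn9 followed the interferon share there, from 8.51 to 65.0 CPM in NTT, from 7.01 to 52.0 in RTT and from 5.86 to 33.3 in RTT_PTGS12KO. By the interferon-gamma list, RTT monocytes went the other way for Slfn8, from 83.8 to 57.4 CPM, for Slfn9, from 27.9 to 25.1 CPM, and for Slfn4, from 24.2 to 21.5 CPM, whereas these were higher in the highest bin of NTT and RTT_PTGS12KO.

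**Figure D4:**
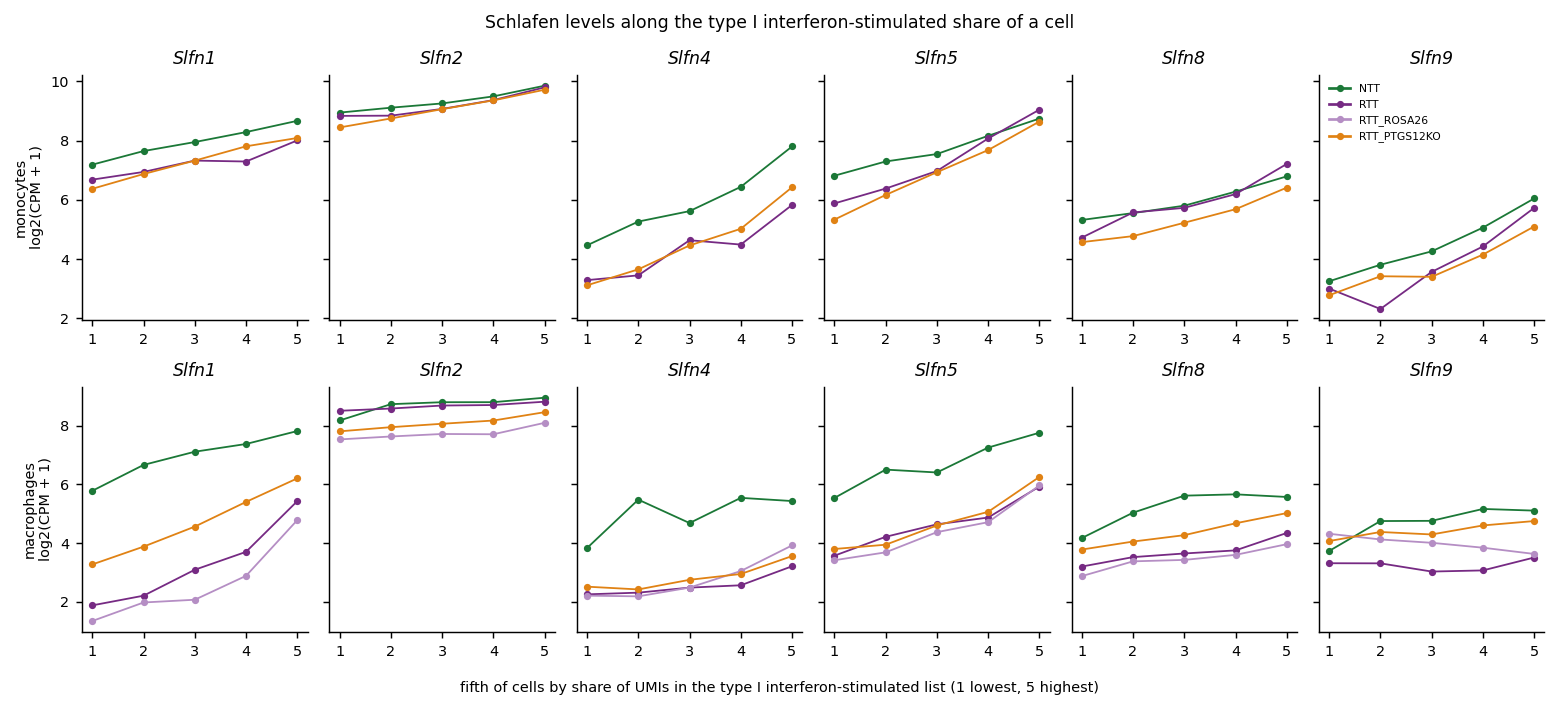
log2(CPM + 1) of 6 Schlafen members in 5 equal bins of monocytes (upper panels) and macrophages (lower panels), ordered by the share of UMIs in the type I interferon-stimulated list, 1 line a sample. RTT_ROSA26 is left out of the upper panels because it had 144 monocytes, and its Slfn9 line in macrophages goes down. The bins also differ in cell type.

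The same ranking was then made inside each cell type and sample of at least 250 cells, so that the bins could not differ in named type. Over 5 monocyte pairs, 3 of Monocyte_1 and 2 of Infl_Mono, the folds from the lowest to the highest bin were 1.82 to 5.21 for Slfn5, 2.07 to 4.48 for Slfn9, 1.46 to 3.04 for Slfn1, 1.50 to 2.32 for Slfn8 and 1.35 to 1.98 for Slfn2, and these 5 members were higher in the highest bin in 5 of 5. Slfn4 was higher in 4 of 5, by up to 4.86-fold, and Monocyte_1 of RTT was the exception, with 7.37 against 6.88 CPM. Over 12 macrophage pairs, Slfn1 (3.17 to 12.7), Slfn5 (2.93 to 10.8), Slfn8 (1.51 to 4.60), Slfn4 (1.19 to 4.99) and Slfn2 (1.03 to 2.41) were higher in the highest bin in 12 of 12, and Slfn9 in 10 of 12. Some of these rises were small, from 3.73 to 4.64 CPM for Slfn4 in Ctsk_Macro of RTT. Slfn2 in TAM_cycling of RTT_ROSA26 went from 189 to 194 CPM. Slfn4 was under the minimum of 10 CPM in TAM_C1q and Ctsk_Macro. The bins were given no interval, so such small rises show no direction. The pooled bins of macrophages had differed in type as well, with TAM_H2Ab1 at 29.0% of the lowest and 80.3% of the highest bin in NTT.

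RTT and RTT_ROSA26 give the difference between a pair of samples with cyclooxygenase. RTT is shared with the first comparison and RTT_ROSA26 with the second. The study's methods describe making guide lines from clones with inducible Cas9, with a marker vector and puromycin selection. RTT_ROSA26 may therefore differ from RTT by more than the control guide, and line and tumour cannot be told apart. Over monocytes and macrophages 0 of 6 members were at least 2-fold higher in RTT_ROSA26, beside 0.532% of genes, and 1 of 6, Slfn1 (-1.09), was at least 2-fold lower, beside 1.22%. The median was -0.42. In pooled macrophages Slfn2 was at -0.93, further from 0 than its 0.39 between RTT_PTGS12KO and RTT_ROSA26. Slfn1 was at -0.79 (-0.91 to -0.67) and Slfn9 at 0.77. Differences of that size thus occurred in pooled macrophages of tumours that share cyclooxygenase. Over 4 single macrophage types, Slfn2 lay between -1.04 and -0.51 and Slfn1 between -0.74 and -0.40. Slfn9 went both ways there, from -0.40 to 0.62.

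**Figure D5:**
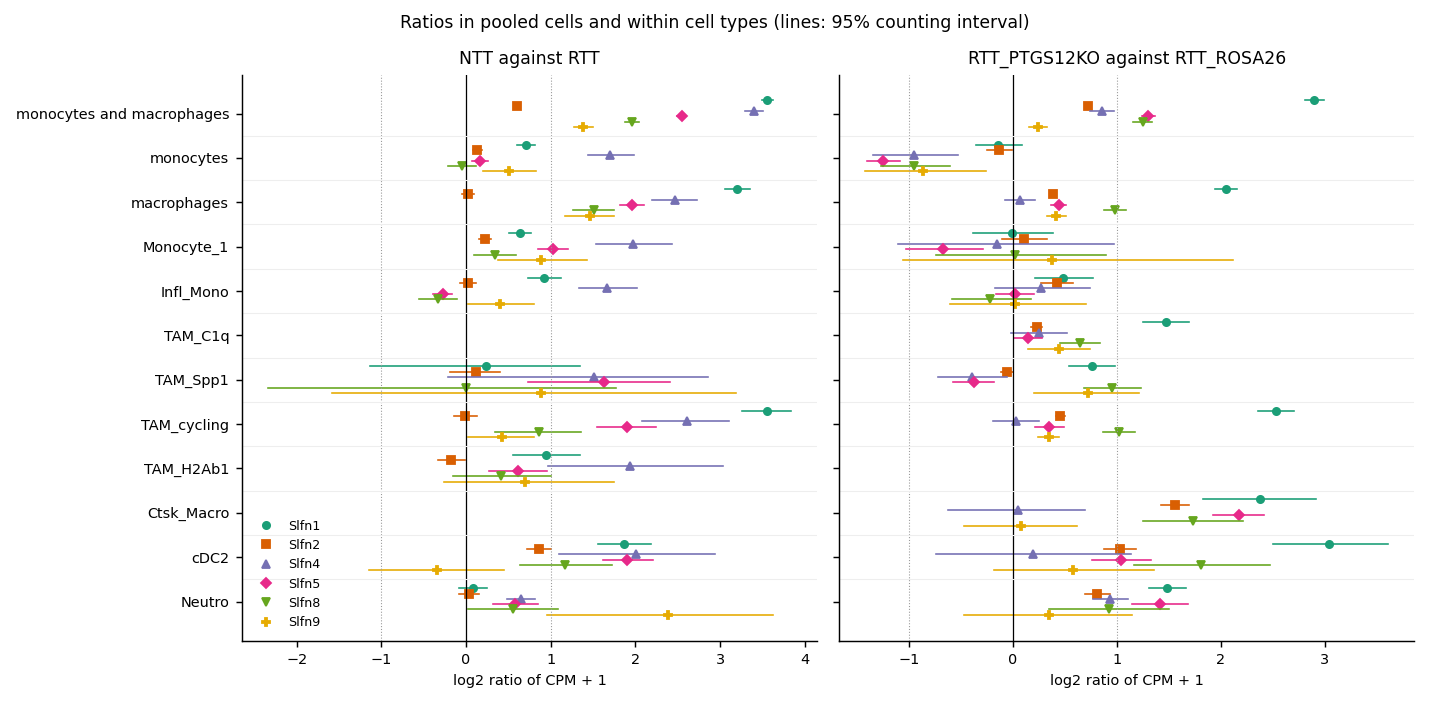
log2 ratio of CPM + 1 for 6 Schlafen members, NTT against RTT (left) and RTT_PTGS12KO against RTT_ROSA26 (right), in pooled cells and in single cell types, with 95% counting intervals as lines and 2-fold limits dotted. Slfn1 reaches 3.55 in TAM_cycling on the left and 3.04 in cDC2 on the right, and Slfn2 stays within 2-fold of RTT in every row of the left panel.

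Genes with the most similar pattern were sought over 42 sums of a cell type in a sample, from 14 cell types with at least 50 cells, by Pearson's r of log2(CPM + 1) over 7096 genes. The sums share libraries and depth, so r is a description. Slfn1 was most like Oas3 (0.95), Oasl2 (0.94) and Trim30d (0.93). Slfn5 was most like Ifih1 (0.93), a sensor of double-stranded RNA, Oasl2 (0.93) and Oas2 (0.92). Slfn8 was most like Parp14 (0.94), Ifi204 (0.94) and Rnf213 (0.92), and Slfn2 like N4bp1 (0.94), 1600014C10Rik (0.94) and Trim30a (0.92). Slfn4 was most like Csf3r (0.88), the receptor of the neutrophil growth factor G-CSF, Acod1 (0.88), which makes itaconate, and Hcar2 (0.86). For Slfn9 the values were lower, with Sass6 (0.79), needed to build centrioles, Cgas (0.75), the cytosolic DNA sensor, and Nt5c3 (0.71). Between members r was highest for Slfn5 and Slfn8 (0.90), and Slfn9 was at 0.48 with Slfn8, 0.32 with Slfn1 and 0.20 with Slfn2. The other genes named Slfn in the matrix, Slfn14, Slfn5os and Slfnl1, had 0 to 3 UMIs in a whole sample.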

How the data were processed

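Per the labels and the study's methods, the authors multiplexed 4 samples with CellPlex tags, counted UMIs with Cell Ranger on mm10, filtered cells and named cell types in Seurat 4.3.0. The deposited matrix holds raw UMI counts, not the values the authors log-normalized and scaled for clustering. UMIs were summed per sample and cell population and expressed as CPM. With 1 sample a group, no test across samples was run. Intervals are exact Poisson (levels), Clopper-Pearson (shares) and conditional binomial (ratios) at 95%. Genes with a mean of at least 10 CPM over the samples entered a comparison. The ratio script was tested on simulated data. Monocytes are 3 and macrophages 5 of the authors' types, and Macro was left out. Named genes are the members, other genes named Slfn, Ptgs1, Ptgs2 and, for each member at or above 10 CPM, the 3 genes of highest r. Members and lists were chosen with earlier results of these data known. No doublet caller was run. Alternatives were CPM + 10, TMM factors (edgeR 4.0.16), UMIs per cell, no minimum, stricter cell filters, placing cells by markers, equal weights of types, leaving out each chip load and, chosen after seeing the data, leaving out Infl_Mono, equal weights for the interferon lists, ranking cells within single types, leaving out genes past the minimum through 1 sample, and neutrophils without division markers. Shared words come from the GENCODE transcripts given for mm10, promoters from RefSeq (7 of 7 members matched). Python 3.11.15 and R 4.3.3 were used.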

Additional observations from a re-analysis of the deposited data

Results flagged for a closer look

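For RTT_PTGS12KO against RTT_ROSA26, 4 members had ratios of opposite sign in monocytes and macrophages, with counting intervals clear of 0 on both sides. The share of all genes with such opposite signs was not computed, so the count of 4 is no finding about the family. Slfn5 was at -1.25 in monocytes and 0.44 in macrophages, Slfn8 at -0.95 and 0.98, Slfn9 at -0.86 and 0.42, and Slfn2 at -0.13 and 0.39. For RTT_ROSA26 against RTT, Slfn5 was at 0.79 in monocytes and -0.22 in macrophages. The difference between the cell classes was not tested, since each group is 1 sample. All of these monocyte values rest on the 144 monocytes of RTT_ROSA26. Within Infl_Mono the ratios of RTT_PTGS12KO to RTT_ROSA26 were 0.02 (-0.16 to 0.21) for Slfn5, -0.22 (-0.59 to 0.18) for Slfn8, 0.02 (-0.60 to 0.71) for Slfn9 and 0.42 (0.27 to 0.58) for Slfn2. Within Monocyte_1, with 54 cells in RTT_ROSA26, Slfn5 was lower in RTT_PTGS12KO, at -0.67 (-1.03 to -0.29), while Slfn8 was at 0.03 (-0.74 to 0.90), Slfn9 at 0.38 (-1.06 to 2.12) and Slfn2 at 0.11 (-0.10 to 0.33). With Monocyte_1 and Infl_Mono weighted equally, the monocyte ratios were -0.12 for Slfn5, -0.16 for Slfn8, 0.093 for Slfn9 and 0.31 for Slfn2.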

How the results depend on the processing

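No paired analysis was possible because 1 sample stands for each group. Values are given for NTT against RTT, then RTT_PTGS12KO against RTT_ROSA26, then RTT_ROSA26 against RTT. The median ratio of the members over monocytes and macrophages (2.25, 1.05, -0.42) was 1.90, 0.77 and -0.29 with CPM + 10, 2.32, 1.16 and -0.52 with TMM factors, and 1.45, 0.88 and -0.22 as UMIs per cell. It was 1.96 and 0.86 with no minimum in the first 2 comparisons, 2.02, 0.85 and -0.31 without Infl_Mono (chosen after seeing the data), and 0.32, 0.21 and -0.057 with cell types weighted equally. With that weighting 2 members in place of 5 (Slfn4, which passed the minimum through NTT alone, in both counts), and 0 in place of 3, were at least 2-fold higher. Without Slfn4 the first median was 1.96. Leaving out 1 chip load gave medians of 2.24 to 2.27, 1.01 to 1.10 and -0.49 to -0.38. Of 18 member ratios of at least 2-fold in pooled cells, monocytes or macrophages, 18 stayed so with TMM factors, 14 as UMIs per cell, 13 with CPM + 10 and 6 with types weighted equally. With cells placed by marker UMIs, Slfn5 in monocytes for RTT_PTGS12KO against RTT_ROSA26 turned from -1.25 to 0.26. That placing moved 1983 of 4015 RTT_PTGS12KO monocytes out, and of the 259 cells it called monocytes in RTT_ROSA26, 172 were the authors' macrophages. The cause was not tested, except that equal weights fix the mixture of types by construction. Depth limits Slfn3 and the 144 monocytes of RTT_ROSA26.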
